A study of Mus musculus with 24 samples.

Results

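The knockout effect of E4f1 was compared gene by gene between 2 backgrounds of mouse embryonic fibroblasts (MEFs). The genes are the 170 whose reporters stood in both of the authors' deposited lists of changed reporters, 1 list for each background, made with SAM (Significance Analysis of Microarrays) and named for a 5% false discovery rate. The lists held 3397 genes in Ha-RasV12 cells and 475 in p53-/- cells, 3667 in either, so that the 170 are 5% of the Ha-RasV12 genes and 35.8% of the p53-/- genes. A gene with several shared reporters was represented by the one with the highest mean signal. The genes were thus chosen by their listed knockout effects in both backgrounds, so that each effect alone is a description, and a test was read only for the difference between backgrounds among genes that changed the same way.

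The 4 groups were Ha-RasV12 E4F1 -/-, Ha-RasV12 E4F1 +/-, p53-/- E4F1 -/- and p53-/- E4F1 +/- cells. All lacked the p53 tumour suppressor and had a mixed C57BL/6 and 129Sv/J background. MEFs came from embryos at day 13.5, carried a floxed E4f1 allele and were taken 3 days after a retrovirus delivered a self-excising CRE recombinase. The controls had received CRE too and kept 1 working allele, so the comparison is no copy against 1 copy. The Ha-RasV12 cells had also been transformed with a retrovirus carrying activated Ha-Ras. Each group had 3 independent replicates, A, B and C, whose RNA was read on 2-colour arrays in both dye orientations (24 samples, 12 arrays). Knockout and control RNA of 1 replicate shared an array, and a replicate's value here is the mean log2 ratio, knockout minus control, of its 2 arrays. In these bulk RNA samples, fewer cells of a type and less RNA per cell cannot be told apart.

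E4F1 is a zinc finger transcription factor, first described through its binding to the adenovirus E4 promoter. It is known in mouse cells to control genes of pyruvate dehydrogenase, mitochondrial proteins and the checkpoint kinase CHK1, and it also modifies p53, an arm that p53-/- cells lack. RAS signals through the ERK pathway to growth, adhesion and matrix genes, and transformed fibroblasts typically lose contractile fibres and matrix.

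Of the 170 genes, 62 were lower in knockout cells of both backgrounds and 38 were higher in both. A further 50 were higher in Ha-RasV12 and lower in p53-/- knockout cells, and 20 were lower in Ha-RasV12 and higher in p53-/- knockout cells. The 77 genes with 2 or more shared reporters fell into the same class by each of them, and 167 of the 170 had a current RefSeq name. No filter on low values was used. Probes of 113 genes were above background, the 95th percentile of 5000 negative-control spots, in all 24 samples, and 0, 3, 6 and 3 genes were above it in no Ha-RasV12 knockout, Ha-RasV12 control, p53-/- knockout and p53-/- control sample. The median absolute effect was 1.20 (log2) in Ha-RasV12 and 0.70 in p53-/- cells, against 0.168 and 0.115 over all 132488 probes. The effect was larger in size in Ha-RasV12 cells for 143 of 170 genes (84.1%), beside 62.0% of all probes. Replicates were also further apart there: the median SD of the 3 ratios was 0.52 in Ha-RasV12 and 0.19 in p53-/- cells for these genes, and 0.319 and 0.205 for all probes. The genes were listed by fold against spread, so a wider spread calls for a larger fold. The choice of genes thus bears on the 84.1%, and its excess over all probes is a description. Over all probes, the 2 dye-swapped arrays of a replicate correlated at 0.39 to 0.62 in their ratios in Ha-RasV12 cells and at -0.07 to 0.02 in p53-/- cells. Arrays of different replicates with the same dyes correlated at 0.08 to 0.34 in Ha-RasV12 and 0.15 to 0.25 in p53-/- cells. With opposite dyes they correlated at -0.01 to 0.24 and -0.10 to -0.03. In p53-/- cells the array ratios thus followed dye orientation more than replicate.

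The difference between backgrounds, Ha-RasV12 minus p53-/-, was tested for every probe with limma. It passed an adjusted p of 0.05 for 568 of 132488 probes (0.429%), 405 more positive and 163 more negative in Ha-RasV12 cells, and 9.08% of probes had an unadjusted p under 0.05. Among the 100 genes that changed the same way, 1 passed the adjusted threshold, Tap2, and 17 had an unadjusted p under 0.05. All 17 were larger in size in Ha-RasV12 cells, 11 among the genes lower in both and 6 among those higher in both. The lists weigh a fold against its spread, and the spread was wider in Ha-RasV12 cells, so the choice of genes bears on this direction. The 9.08% of probes were not split by size, and the direction of the 17 is a description. For 53 of the 100 genes the 95% interval of the difference lay within 1 log2 unit of 0, and its median width was 1.29 for genes lower in both and 1.33 for genes higher in both. For the other genes a difference of 1 log2 unit or more lay inside the interval. The 70 genes of opposite direction get no test, as the choice of genes fixes that the effects differ.

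Taken alone, the knockout effect passed limma's adjusted threshold for 91 of the 170 genes in Ha-RasV12 cells (2.31% of all probes) and for 8 in p53-/- cells (0.0211% of all probes). The rule chose the genes on these same contrasts. The fit used 1 estimate of the spread for both backgrounds, though replicates were further apart in Ha-RasV12 cells. The counts of 91 and 8 are therefore not compared. Of the 170 genes, Gng11 and Siae stood nearest the edges of the Ha-RasV12 list (SAM scores of 1.62 and -1.81). Neat1 and 1500009L16Rik stood nearest those of the p53-/- list (1.45 and -1.37). The same score was recomputed from the arrays for reporters of other genes that only the other background listed. Its extremes were 1.58 for Islr and -1.80 for Penk in Ha-RasV12 cells, and 1.52 for Cpm and -1.36 for BC021767 in p53-/- cells. Cpm lay past the edge and was still unlisted, so the score was not the only criterion. The sources used here do not give the other one.

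E4f1 was lower in all knockout replicates. Its log2 intensities were 6.74, 6.08 and 6.09 in Ha-RasV12 knockout replicates A, B and C and 8.70, 8.23 and 7.95 in Ha-RasV12 controls. In p53-/- cells they were 6.57, 6.69 and 6.52 in knockouts and 7.95, 7.62 and 8.05 in controls. Knockout and control replicates did not overlap in either background. In knockouts this probe stood above background in 3 of 6 Ha-RasV12 and 2 of 6 p53-/- samples, so the ratios of -1.99 ± 0.14 in Ha-RasV12 and -1.28 ± 0.31 in p53-/- cells (SD, n = 3 each) sit near the lower end of what the array measures. Their difference was -0.71 (95% interval -1.24 to -0.19, adjusted p = 0.359). The sources used here do not say whether the probes lie in the deleted part of E4f1, so the fall checks the labels only as far as that. For Trp53 only 1 of 3 named probes was bright, at 7.37, 7.71 and 7.97 in Ha-RasV12 knockouts, 7.60, 9.00 and 9.08 in Ha-RasV12 controls, 7.93, 8.12 and 7.88 in p53-/- knockouts and 8.18, 8.33 and 8.26 in p53-/- controls. No probe could be named for Hras.

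Ha-RasV12 replicate A stood apart from B and C in some classes of genes. Over the 62 genes lower in both, the median ratios of replicates A, B and C were -0.86, -1.62 and -1.54 in Ha-RasV12 cells, against -1.16, -0.97 and -1.04 in p53-/- cells. Replicate A had the smallest ratio of the 3 for 40 of the 62 genes in Ha-RasV12 cells, and for 16 of 62 in p53-/- cells. Without that replicate, the median of the 62 genes in Ha-RasV12 cells was -1.51 in place of -1.32, and 55 in place of 50 of them had the larger effect there. In the other classes that count fell, to 27 in place of 31 among genes higher in both. It was 38 in place of 45 among genes higher in Ha-RasV12 and lower in p53-/- cells, with a median of 0.90 in place of 1.23. Among genes of the reverse kind it was 16 in place of 17, with a median of -1.10 in place of -1.34. The number of same-direction genes past the adjusted threshold was then 11 in place of 1. Calls rose over the whole array too, to 2252 in place of 568 of 132488 probes. Genes higher in both had medians of 0.86, 1.00 and 1.05 in Ha-RasV12 cells and 0.71, 0.59 and 0.71 in p53-/- cells. Genes higher in Ha-RasV12 and lower in p53-/- cells went the other way round, with the largest median in replicate A (1.47, 0.97 and 1.04), against -0.63, -0.54 and -0.61 in p53-/- cells. Among genes lower in Ha-RasV12 and higher in p53-/- cells, Ha-RasV12 replicate A lay between B and C (-1.39, -1.08 and -1.60).

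**Figure D1:**
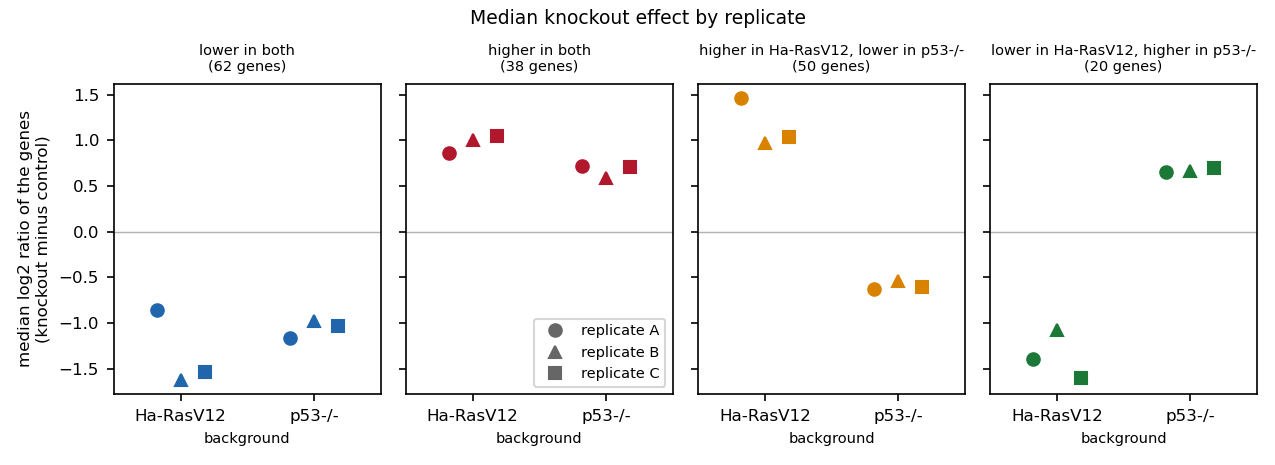
Median log2 ratio, knockout minus control, over the genes of each class (1 panel per class), by background and replicate. Ha-RasV12 replicate A has the median nearest 0 of the 3 among genes lower in both (-0.86) and the highest among genes higher in Ha-RasV12 and lower in p53-/- cells (1.47).

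Among markers of cell type, the 4 of 8 fibroblast markers that could be named (Col1a1, Col3a1, Fn1 and S100a4) were above background in all 12 samples of each background. Of the 6 macrophage markers 2 could be named. Ptprc was above background in 3 of 12 Ha-RasV12 and 1 of 12 p53-/- samples, and Cd53 in 9 of 12 and 12 of 12. Of 4 muscle markers, Des was above it in 0 of 12 Ha-RasV12 and 10 of 12 p53-/- samples, and Acta1 in 11 of 12 and 12 of 12. The epithelial marker Epcam was above it in 12 of 12 Ha-RasV12 samples (log2 intensity 7.86 to 9.63) and in 0 of 12 p53-/- samples (5.52 to 6.65). It was the only epithelial marker of 4 that could be named, and no endothelial marker could be named. Of 4 neural markers, Nes was above background in all 12 samples of each background, and Map2 in 12 of 12 Ha-RasV12 and 10 of 12 p53-/- samples. Of 4 adipocyte markers, Fabp4 was above it in all 12 samples of each background, Lpl in 11 of 12 Ha-RasV12 and 12 of 12 p53-/- samples, and Pparg in 10 of 12 and 11 of 12. The other neural and adipocyte markers could not be named. The part of other cell types in the gene results was not tested.

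Pyruvate metabolism is a known target of E4F1, and its genes were listed in both directions. Of 18 genes of pyruvate dehydrogenase and pyruvate transport, the authors' deposited tables list 4 as higher and 3 as lower in Ha-RasV12 knockouts, and 1 as higher and 3 as lower in p53-/- knockouts. The 4 among the 170 are Mpc1, Dlat and Pdpr, lower in both, and Pdk1, higher in both, and none of their differences between backgrounds passed the adjusted threshold. Mpc1, a subunit of the mitochondrial pyruvate carrier, had ratios of -1.08, -1.61 and -1.80 in Ha-RasV12 cells and -0.71, -0.78 and -0.56 in p53-/- cells. The replicates of the 2 backgrounds did not overlap, and the difference of -0.81 (95% interval -1.35 to -0.26) had an adjusted p of 0.308. For Dlat, the E2 enzyme of the complex, the ratios were -1.60, -2.19 and -2.45 in Ha-RasV12 cells, against -1.79, -1.10 and -1.36 in p53-/- cells. These overlap in 1 replicate, and the difference was -0.66 (-1.31 to -0.02, adjusted p = 0.536). Pdpr, a subunit of the phosphatase that activates the complex, averaged -1.09 ± 0.49 in Ha-RasV12 and -0.61 ± 0.11 in p53-/- cells (SD, n = 3 each), a difference of -0.48 (-1.09 to 0.13). Pdk1, a kinase that inactivates pyruvate dehydrogenase, moved the other way by nearly equal amounts. Its ratios were 0.52, 0.59 and 0.67 in Ha-RasV12 and 0.41, 0.79 and 0.67 in p53-/- cells, with a difference of -0.03 (-0.50 to 0.44).

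Nuclear genes for mitochondrial proteins were among the genes with the lowest ratios in both backgrounds. Dnajc19 encodes a co-chaperone of the inner membrane protein import machinery. Its log2 intensity was 9.50, 7.96 and 9.09 in Ha-RasV12 knockouts, against 12.59, 13.28 and 13.09 in Ha-RasV12 controls, and 10.14, 10.79 and 10.88 in p53-/- knockouts, against 13.25, 13.37 and 13.19 in p53-/- controls. The controls of both backgrounds were thus close and the knockouts apart. The ratio averaged -4.14 ± 1.13 in Ha-RasV12 and -2.67 ± 0.41 in p53-/- cells (SD, n = 3 each), and the difference of -1.47 (-2.58 to -0.37) had an adjusted p of 0.376. Without Ha-RasV12 replicate A its adjusted p (limma) was 0.03, and with any other replicate left out it was 0.36 to 0.885. Ndufs5, a subunit of respiratory complex I, showed the same order with less spread: -3.44, -3.10 and -3.10 in Ha-RasV12 cells, against -2.36, -2.25 and -2.09 in p53-/- cells. The difference was -0.98 (-1.46 to -0.50, adjusted p = 0.127). Its pseudogene Ndufs5-ps gave -3.17 ± 0.34 in Ha-RasV12 and -2.19 ± 0.25 in p53-/- cells, and probes of the pair can share target sequence. Of 28 named respiratory chain genes and 2 name prefixes, these 2 were the only ones among the 170. The authors' deposited tables list 12 respiratory chain genes as higher and 10 as lower in Ha-RasV12 knockouts, and 0 and 2 in p53-/- knockouts. For mitochondrial import and inner membrane genes they list 3 as higher and 5 as lower in Ha-RasV12 knockouts, and 1 and 4 in p53-/- knockouts. For the mitochondrial ribosome these were 2 and 11, and 0 and 1.

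Other mitochondrial genes differed less. Mrpl15, a protein of the large mitochondrial ribosomal subunit, had -1.38, -1.73 and -1.83 in Ha-RasV12 cells and -1.42, -1.21 and -1.29 in p53-/- cells (difference -0.34, -0.83 to 0.15). Taz, the cardiolipin remodelling enzyme tafazzin, was among the steadiest. It had -1.47, -1.49 and -1.54 in Ha-RasV12 cells and -1.48, -1.42 and -1.31 in p53-/- cells, so that all 6 replicates lay close together and the difference was -0.10 (-0.54 to 0.34). Slc25a43, of the mitochondrial carrier family, averaged -0.55 ± 0.20 in Ha-RasV12 and -0.56 ± 0.22 in p53-/- cells. In p53-/- knockouts it was not well above background in any of 6 samples, and by that bound it was at least 1.03-fold lower. Mgarp, a mitochondrial protein gene, was higher in both, by 1.14 ± 0.53 in Ha-RasV12 and 0.66 ± 0.31 in p53-/- cells (difference 0.48, -0.20 to 1.16).

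A list of 20 genes that earlier studies tie to E4F1 has 11 of the 170, and these 11 were lower in both backgrounds. The list may rest in part on these samples, so its direction is not independent evidence. Beside the genes above it holds Rad52, Chek1 and Eef1g. Rad52, which acts in recombination repair, differed little, with -1.50, -1.37 and -1.73 in Ha-RasV12 cells and -1.46, -1.17 and -1.16 in p53-/- cells. Chek1, the checkpoint kinase gene, had -0.12, -2.26 and -1.04 in Ha-RasV12 cells and -1.35, -0.99 and -1.19 in p53-/- cells. The means were almost equal (difference 0.03, -0.98 to 1.05), but replicate A of Ha-RasV12 cells was near 0 and replicate B lay below every p53-/- value. In that replicate A it was the control that was low, with a log2 intensity of 8.26 in the knockout and 8.38 in the control, against 10.53 and 10.34 in controls B and C. Eef1g, a subunit of the translation elongation factor 1 complex, had the same order, with -0.53, -2.13 and -1.56 in Ha-RasV12 cells and -1.40, -1.02 and -1.09 in p53-/- cells.

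**Figure D2:**
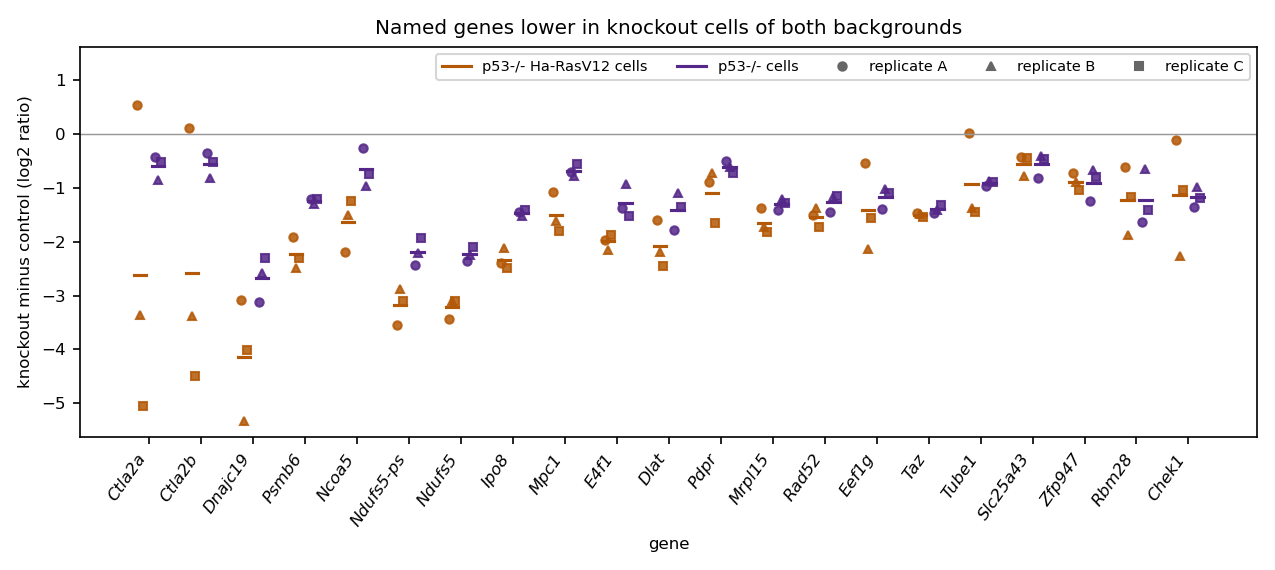
Log2 ratio, knockout minus control, in each replicate (circle, triangle and square for A, B and C; bar for the mean) of named genes lower in both backgrounds, Ha-RasV12 left of p53-/- for each gene. Genes are ordered by the difference of the means, which runs from -2.03 for Ctla2a to 0.03 for Chek1.

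Replicate ratios did not overlap between backgrounds for 13 of the 62 genes lower in both and for 5 of the 38 genes higher in both, Psmb6, Ipo8 and Ncoa5 among the 13. The share of all probes without such overlap was not counted, so nothing is read from these 2 counts. For Psmb6, a catalytic subunit gene of the proteasome, the ratios were -1.91, -2.48 and -2.30 in Ha-RasV12 and -1.20, -1.31 and -1.20 in p53-/- cells. The difference was -0.99 (-1.50 to -0.49, adjusted p = 0.143), and without Ha-RasV12 replicate A it was -1.15 with an adjusted p of 0.031. With any other replicate left out, the adjusted p (limma) was 0.168 to 0.618. Ipo8, an importin gene, had -2.39, -2.12 and -2.48 in Ha-RasV12 cells against -1.45, -1.53 and -1.41 in p53-/- cells (difference -0.87, -1.34 to -0.40, adjusted p = 0.17). Ncoa5, a nuclear receptor coactivator gene, had -2.19, -1.50 and -1.24 in Ha-RasV12 and -0.26, -0.96 and -0.74 in p53-/- cells (difference -0.99, -1.66 to -0.32, adjusted p = 0.311).

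The widest difference of means among genes lower in both belonged to Ctla2a and Ctla2b, which encode inhibitors of cysteine proteases, and it rested on how replicates scattered. Ctla2a had ratios of 0.54, -3.37 and -5.06 in Ha-RasV12 cells and -0.42, -0.85 and -0.52 in p53-/- cells. Ha-RasV12 replicate A was thus higher in the knockout. Its control there was dim, with a log2 intensity of 6.31, against 11.68 and 11.53 in controls B and C. Ctla2b gave 0.11, -3.39 and -4.49 in Ha-RasV12 cells against -0.35, -0.82 and -0.52 in p53-/- cells, and probes of these near-identical copies may share target. The differences of -2.03 (-4.51 to 0.45, adjusted p = 0.643) and -2.03 (-4.11 to 0.06, adjusted p = 0.568) became -3.61 and -3.37 without replicate A, with adjusted p of 0.00187 and 0.000698. With any other replicate left out, the adjusted p (limma) was 0.669 to 0.937 for Ctla2a and 0.6 to 0.918 for Ctla2b.

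Some genes lower in both had nearly equal means in the 2 backgrounds. Zfp947, a zinc finger gene on chromosome 17 like E4f1, averaged -0.89 ± 0.16 in Ha-RasV12 and -0.90 ± 0.30 in p53-/- cells (difference 0.01, -0.51 to 0.54). Rbm28, a nucleolar protein gene of ribosome assembly, averaged -1.22 ± 0.63 in Ha-RasV12 and -1.24 ± 0.51 in p53-/- cells (difference 0.01, -0.80 to 0.83). For Tube1, which encodes epsilon tubulin, the means of -0.93 ± 0.83 in Ha-RasV12 and -0.91 ± 0.04 in p53-/- cells hid a Ha-RasV12 replicate A of 0.02 beside -1.37 and -1.45. Of the 62 genes lower in both, 26 differed by at most 0.25 between the listed effects and 4 by 1 or more. Of the 38 higher in both, 20 and 4 did.

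Promoter windows of these genes were searched for TGACGT, the core of the ATF-type site to which E4F1 was first found to bind, on both strands (ACGTCA on the other strand). The windows were RefSeq promoters of GRCm38.p6, 250 bases before to 50 after each start, and a gene counted when any of its windows matched. Of 49 genes lower in both with a window, 11 held the core (22.4%), against 12% of 2508 genes in the Ha-RasV12 list and 8.37% of all 27025 genes. Among genes higher in both it was 3 of 25 (12%), among those higher in Ha-RasV12 and lower in p53-/- cells 3 of 27 (11.1%), and among those lower in Ha-RasV12 and higher in p53-/- cells 2 of 13 (15.4%). The palindrome TGACGTCA, which contains the core, was in 3 of the 49 (6.12%) and in 2.03% of all genes. The extension TGACGTAA (TTACGTCA on the other strand) was in 0 of the 49 and 0.581% of all genes. The named genes lower in both whose windows hold the core are given as a stretch of 60 bases on the gene's own strand. Capitals mark the core, which reads TGACGT in Ctla2a and Ctla2b and ACGTCA in Rbm28, and in Pdpr the palindrome, where both overlap.
Pdpr: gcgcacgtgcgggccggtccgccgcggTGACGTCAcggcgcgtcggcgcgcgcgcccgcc
Rbm28: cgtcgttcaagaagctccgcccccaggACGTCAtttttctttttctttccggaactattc
Ctla2a: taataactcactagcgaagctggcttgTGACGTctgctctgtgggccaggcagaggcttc
Ctla2b: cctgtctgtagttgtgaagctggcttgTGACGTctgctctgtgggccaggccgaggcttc

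The Pdpr stretch is chr8:111094570-111094629 on the plus strand and its core begins 148 bases before the start site. That of Rbm28 is chr6:29164764-29164823 on the minus strand, 72 bases before the start. The Ctla2 stretches are chr13:60936643-60936702 for Ctla2a and chr13:60897487-60897546 for Ctla2b, both on the minus strand, at 50 and 72 bases before the start, and share the core with most of the bases around it. A match is a description of these letters and no evidence of binding. Among these 4 genes the difference between backgrounds ran from 0.01 for Rbm28 to -2.03 for Ctla2a.

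Genes higher in both backgrounds had larger ratios in Ha-RasV12 cells for 31 of 38, a count on which the choice of genes bears. The clearest difference was that of Tap2, a subunit of the transporter that loads peptides for MHC class I. Its log2 intensity was 9.57, 9.15 and 8.48 in Ha-RasV12 knockouts, against 6.60, 6.50 and 5.93 in Ha-RasV12 controls. In p53-/- cells it was 8.64, 8.26 and 8.77 in knockouts, against 7.72, 7.89 and 8.22 in controls. The ratios of 2.96, 2.65 and 2.55 in Ha-RasV12 cells lay above all of 0.92, 0.37 and 0.55 in p53-/- cells. The difference was 2.11 (95% interval 1.58 to 2.64, adjusted p = 0.0072), and 3 of 6 Ha-RasV12 control samples were above background. Among controls Tap2 was lower in Ha-RasV12 cells by 1.60 (adjusted p = 0.00583), while among knockouts the levels differed by 0.51 (adjusted p = 0.373). Without the block that keeps the 2 channels of an array together, the adjusted p of the difference was 0.0842. Leaving out p53-/- replicate B or C gave 0.0831 and 0.0844.

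H2-DMa and C1s1, also of immune function, had no called difference. H2-DMa, which helps load peptides on MHC class II, had ratios of 1.22, 1.59 and 1.10 in Ha-RasV12 cells and 0.68, 0.59 and 0.67 in p53-/- cells. C1s1, a protease of the complement cascade, had 1.43, 1.10 and 1.19 in Ha-RasV12 cells, against 0.55, 0.59 and 0.50 in p53-/- cells. Neither overlapped between backgrounds, and the differences were 0.66 (0.17 to 1.15, adjusted p = 0.361) and 0.69 (0.23 to 1.15, adjusted p = 0.298).

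Proteoglycans of the matrix were higher in both but scattered in Ha-RasV12 cells. Dcn (decorin) had ratios of 1.13, 4.33 and 3.17 in Ha-RasV12 cells and 1.14, 0.57 and 0.91 in p53-/- cells, with a difference of 2.01 (0.55 to 3.46, adjusted p = 0.354). Ha-RasV12 replicate A lay within the range of the p53-/- values, and without it the difference was 2.88 with an adjusted p of 0.00221. The Dcn controls were 11.87, 9.10 and 8.91 (log2 intensity) in Ha-RasV12 cells, highest in replicate A, and 11.45, 11.48 and 11.63 in p53-/- cells. Lum (lumican) had -0.70, 2.61 and 2.21 in Ha-RasV12 cells, against 0.92, 1.13 and 1.46 in p53-/- cells, so that Ha-RasV12 replicate A went the opposite way. Its difference was 0.20 (-1.40 to 1.81), and 1.24 without that replicate (adjusted p = 0.0423). Of 50 matrix genes on the list, these 2 were higher in both and Fn1 and Ccn2 went opposite ways.

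Further genes higher in both included Dclk1, a doublecortin-like kinase gene, with 0.75, 1.63 and 2.51 in Ha-RasV12 cells and 0.40, 0.73 and 0.77 in p53-/- cells (difference 0.99, 0.12 to 1.87, adjusted p = 0.477). Without Ha-RasV12 replicate A it was 1.44 with an adjusted p of 0.0387. The maternally expressed non-coding RNA Meg3 had 4.08, -0.37 and 1.30 in Ha-RasV12 cells, against 0.27, 0.64 and 0.68 in p53-/- cells. Its mean of 1.67 in Ha-RasV12 cells thus came largely from replicate A, and replicate B was below 0. Tcea3, of the TFIIS family of transcription elongation factors, had 2.01, 2.25 and 0.06 in Ha-RasV12 cells, against 0.93, 0.51 and 0.53 in p53-/- cells, with replicate C near 0.

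Among 35 genes of glutathione metabolism and oxidative stress, 4 are among the 170 and they split. Gsta4, a glutathione transferase, was higher in both with 2.93, 1.30 and 1.24 in Ha-RasV12 cells and 1.51, 0.63 and 0.82 in p53-/- cells (difference 0.84, -0.17 to 1.84). Hmox1, the haem oxygenase induced by oxidative stress, was higher in both by 0.66 ± 0.14 in Ha-RasV12 and 0.60 ± 0.21 in p53-/- cells (difference 0.06, -0.43 to 0.55). Nqo1 and Me1 went opposite ways. Nqo1, a quinone reductase, had -3.06, -1.63 and -2.54 in Ha-RasV12 cells and 0.68, 0.80 and 0.49 in p53-/- cells. Me1, the cytosolic malic enzyme that makes NADPH, had 0.09, 1.24 and 1.34 in Ha-RasV12 cells and -0.43, -0.62 and -0.71 in p53-/- cells.

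Dnase1l2, a DNase gene, was steady across replicates. Its ratios were 1.91, 1.90 and 1.78 in Ha-RasV12 and 1.93, 1.88 and 1.90 in p53-/- cells, so that all 6 lay within a narrow range and the difference was -0.04 (-0.48 to 0.40). Lsm4, a protein of RNA splicing and decay complexes, averaged 1.34 ± 0.52 in Ha-RasV12 and 1.47 ± 0.21 in p53-/- cells (difference -0.12, -0.77 to 0.52). Cda, cytidine deaminase, averaged 0.61 ± 0.19 in Ha-RasV12 and 0.66 ± 0.22 in p53-/- cells although its level was 2.20 higher in Ha-RasV12 than in p53-/- controls (adjusted p = 0.0089).

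**Figure D3:**
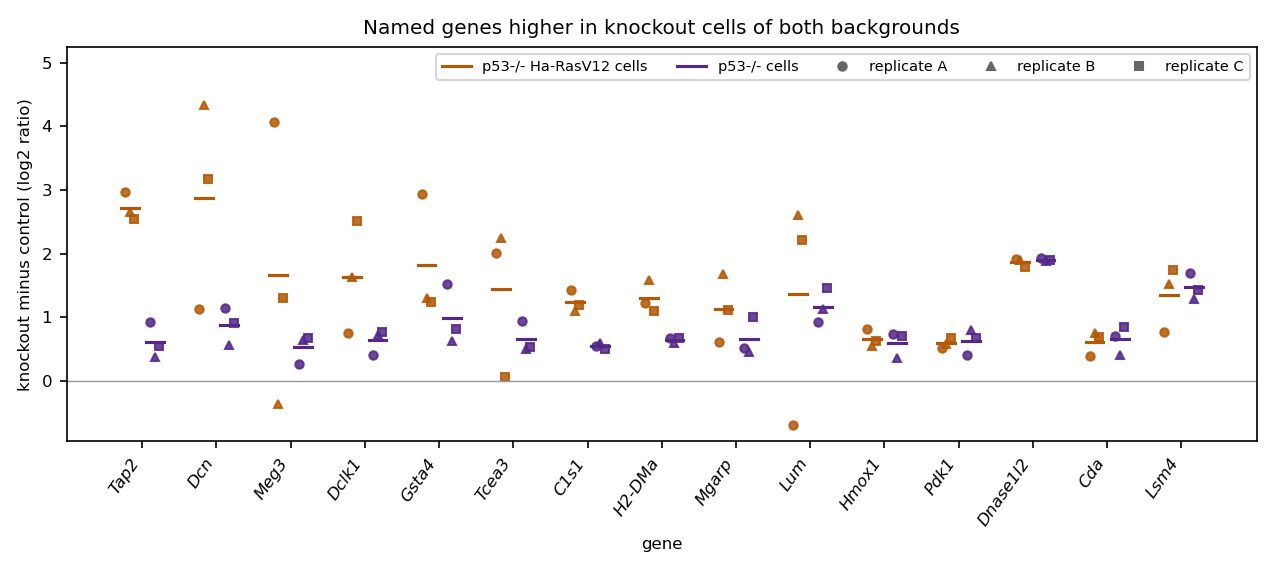
Log2 ratio, knockout minus control, in each replicate (circle, triangle and square for A, B and C; bar for the mean) of named genes higher in both backgrounds, Ha-RasV12 left of p53-/- for each gene. Tap2 replicates lie at 2.55 to 2.96 in Ha-RasV12 and 0.37 to 0.92 in p53-/- cells, while those of Dnase1l2 coincide.

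The chromosome of the genes, which the rule did not use, was counted for same-direction and opposite genes. The shares were not tested against each other. E4f1 lies on chromosome 17, and by the GRCm38.p6 annotation 15 of 98 same-direction genes with a RefSeq entry lay there too (15.3%), E4f1 included, against 2 of 69 opposite genes (2.90%). The share was 5.02% of the genes in the Ha-RasV12 list and 6.21% of those in the p53-/- list. Within 50 protein-coding genes of E4f1 to either side lay 6 of the 98 and 0 of the 69. These were Dnase1l2, its immediate neighbour, Tnfrsf12a, Flywch2, Noxo1, Rps2 and Jpt2, and all but Dnase1l2 were singled out after their values were seen. In the authors' deposited tables the 5 had folds of -1.57, 0.81, 0.67, -1.18 and -0.94 in Ha-RasV12 cells and -1.12, 0.73, 0.58, -1.14 and -1.12 in p53-/- cells. Within 50 genes of E4f1 lay 0.639% of the genes in the Ha-RasV12 list and 2.00% of those in the p53-/- list. The labels give a mixed strain background, and alleles linked to E4f1 and loss of E4F1 cannot be told apart for these genes. The same limit holds for genes of chromosome 17 outside the window, Zfp945 and Zfp947 close to its edge and Mpc1, H2-DMa and Tap2 further out. How far linked alleles reach was not tested.

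The 70 genes of opposite direction were larger in size in Ha-RasV12 cells in 62 cases, and their differences ran from 1.04 to 5.39 in size. In 60 of them all 3 replicates of each background had the sign of their mean. The rule chose these genes for both effects, so their values are a description.

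The 50 genes higher in Ha-RasV12 and lower in p53-/- knockout cells included several patterning genes. Hoxb8, a homeobox gene of trunk patterning, had log2 intensities of 8.32, 7.58 and 8.36 in Ha-RasV12 knockouts, against 5.37, 5.81 and 5.49 in Ha-RasV12 controls. In p53-/- cells it had 7.82, 7.28 and 8.13 in knockouts, against 8.93, 7.73 and 8.95 in controls. Ha-RasV12 controls stood alone below the other 3 groups, with 1 of 6 samples above background. Its cluster neighbours Hoxb7 and Hoxb9, chosen after their values were seen, had folds of 2.16 and 1.72 in Ha-RasV12 and -0.66 and -0.78 in p53-/- cells in the authors' deposited tables. Alx1, a homeobox gene of head and limb mesenchyme, had ratios of 5.82, 0.05 and 4.67 in Ha-RasV12 cells and -0.96, -0.51 and -0.35 in p53-/- cells. In Ha-RasV12 replicate B it was at 5.99 in the knockout and 5.94 in the control, and 1 of 6 Ha-RasV12 control samples was above background. Plac8, a small cysteine-rich protein gene, had the widest difference of the 170, 5.39, with ratios of 5.88, 1.52 and 6.60 in Ha-RasV12 and -1.11, -0.64 and -0.42 in p53-/- cells.

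For matrix and signalling genes the Ha-RasV12 controls had the lowest mean of the 4 groups in Fn1, Ccn2, Fstl3 and Acta2, though not in Ccbe1 or Myc. Fn1, fibronectin, had 14.75, 14.57 and 13.64 in Ha-RasV12 knockouts, against 12.71, 12.67 and 12.55 in Ha-RasV12 controls, and 13.49, 13.72 and 13.92 in p53-/- knockouts, against 14.36, 13.99 and 14.37 in p53-/- controls. Ccn2, a matrix protein gene induced by TGF-beta and YAP, had ratios of 2.63, 1.61 and 1.90 in Ha-RasV12 cells and -1.70, -0.38 and -0.91 in p53-/- cells. Fstl3, an inhibitor of activin, had 2.59, 3.25 and 2.70 in Ha-RasV12 cells and -0.32, -0.57 and -0.40 in p53-/- cells. Ccbe1, a secreted protein gene of lymphatic growth, averaged 2.81 ± 1.46 in Ha-RasV12 and -0.78 ± 0.33 in p53-/- cells. Of the contractile list of 14 genes, Acta2, smooth muscle actin, was the only one among the 170. Acta2 had 0.97, 0.76 and 2.12 in Ha-RasV12 and -0.84, -0.35 and -0.61 in p53-/- cells, and both genotypes were lower in Ha-RasV12 than in p53-/- cells, by 2.44 among knockouts and 4.32 among controls. Myc, a transcription factor gene downstream of growth signals, had 0.82, 2.26 and 0.78 in Ha-RasV12 cells and -0.52, -0.40 and -0.49 in p53-/- cells.

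The 20 genes lower in Ha-RasV12 and higher in p53-/- knockout cells included Nrn1, the neuritin gene. Nrn1 had log2 intensities of 10.90, 8.96 and 10.19 in Ha-RasV12 knockouts, against 13.83, 12.85 and 12.74 in Ha-RasV12 controls, and 10.61, 8.72 and 8.65 in p53-/- knockouts, against 9.74, 8.15 and 8.12 in p53-/- controls. Here the Ha-RasV12 controls stood above the other 3 groups. Slc30a4, a zinc transporter gene, had ratios of -2.26, -2.38 and -4.09 in Ha-RasV12 cells and 0.00, 1.84 and 1.95 in p53-/- cells, so that p53-/- replicate A showed no change. Cdh13, which encodes T-cadherin, had -6.05, 0.56 and -2.56 in Ha-RasV12 cells and 0.58, 0.67 and 0.69 in p53-/- cells, with Ha-RasV12 replicate B going against the other 2.

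**Figure D4:**
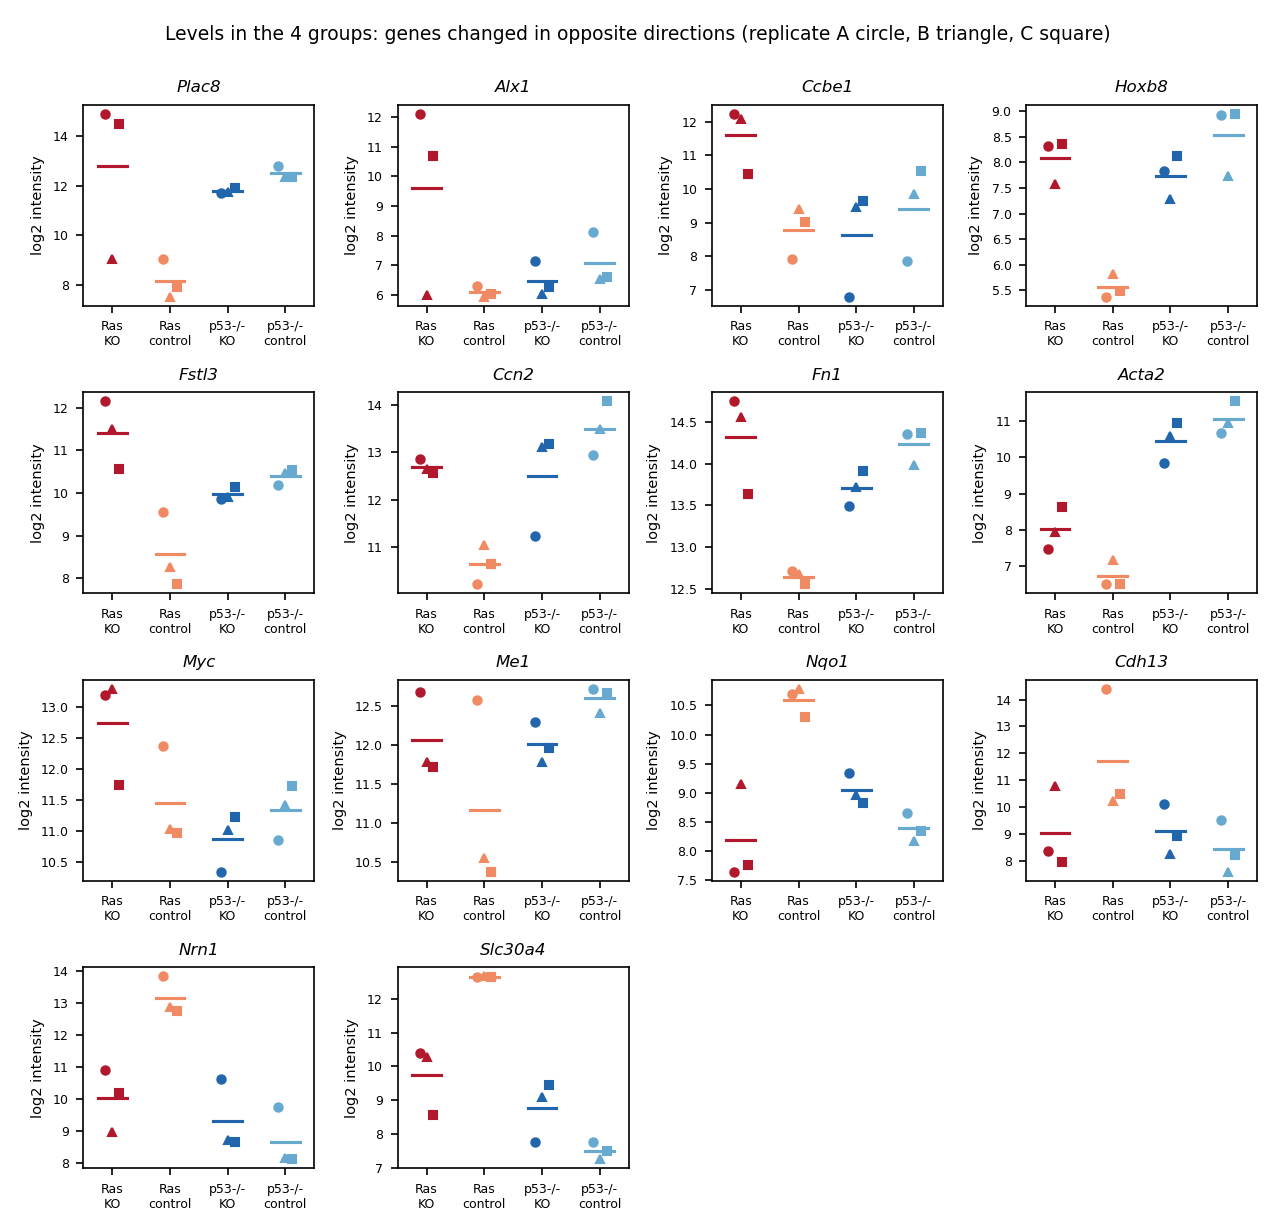
Log2 intensity in each replicate (bar for the mean) of the 4 groups for the 14 named genes of opposite direction, knockout left of control and Ha-RasV12 left of p53-/- cells. For Hoxb8, Fn1, Ccn2 and Fstl3 the Ha-RasV12 controls are the lowest group, and for Nrn1, Nqo1 and Slc30a4 they are the highest.

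Levels were also compared directly, Ha-RasV12 minus p53-/-, within controls and within knockouts. The deposited columns did not share a median (6.11 to 6.50 log2 intensity over the 12 replicate means), and over all probes the median difference was -0.14 among knockouts and -0.13 among controls. Among controls 1339 probes were higher and 3587 lower in Ha-RasV12 cells (1.01% and 2.71%), or 2377 and 3126 after quantile normalization. Among knockouts 1484 were higher and 3250 lower (1.12% and 2.45%), or 2860 and 2828. Of the 62 genes lower in both, 2 were higher and 10 lower in Ha-RasV12 among knockouts, and 3 higher and 2 lower among controls. Their median level difference was -0.31 among knockouts and -0.05 among controls. Mpc1 was lower in Ha-RasV12 cells in both genotypes, by 1.83 among knockouts and 1.02 among controls (adjusted p = 0.000197 and 0.0112). Of the 38 genes higher in both, 4 were higher and 0 lower among knockouts, and 2 higher and 3 lower among controls, with medians of 0.37 and 0.01.

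Of the 50 genes higher in Ha-RasV12 and lower in p53-/- knockout cells, 9 were higher and 5 lower in Ha-RasV12 among knockouts, and 1 higher and 25 lower among controls. Medians were 0.36 and -1.46. Of the 20 genes of the other kind, 1 was higher and 5 lower among knockouts, and 9 higher and 0 lower among controls, with medians of -0.38 and 1.68. The rule used the same control and knockout samples, so nothing is read from these counts. After quantile normalization the lower calls among controls of the 50 genes were again 25, and the higher calls among controls of the 20 were again 9.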

How the data were processed

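Intensities in the value table are the authors' deposited values per dye channel, and the sources used here do not name their background correction or normalization. Their log2 was taken here. The authors' deposited tables give fold changes and mean signals as log2 values and SAM statistics as scores, with deposited q-values of up to 0.151 (p53-/-) and 0.135 (Ha-RasV12). Limma is named in the submitters' processing notes, with no version. For the listed reporters that the value table holds (949 of 949 in p53-/- and 8600 of 8601 in Ha-RasV12 cells), each deposited fold equalled the mean of 6 array ratios, with a largest gap of 5.51e-06, and each deposited stdev their SD over the root of 6, which treats dye swaps as replicates.

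Ratios of the 2 arrays of a replicate were averaged, giving 6 values, and the difference between backgrounds was fitted with limma 3.58.1 (lmFit, eBayes) in R 4.3.3 over 132488 probes, with Benjamini-Hochberg adjustment at 0.05. Levels were fitted as 12 replicate means in 4 groups. Fits were tested on simulated data. In the rule for named genes, E4f1 and Trp53 come first, then members with the largest and smallest differences of fold and up to 5 members of each of 28 lists. Genes, lists and classes were chosen with earlier results of these data known. P-values measure the spread between replicates as labelled. The value table held 0 columns outside the 24 samples. The number of arrays limits the precision. Knockout and control of a replicate share arrays, which the ratios keep paired, and letters did not pair the backgrounds (correlations of ratio deviations between -0.10 and 0.02). Names came from GRCm38.p6 RefSeq.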

Additional observations from a re-analysis of the deposited data

Results flagged for a closer look

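Tap2 was singled out because its knockout effect differed between backgrounds by a test of the difference itself. Its ratio was higher by 2.11 (log2) in Ha-RasV12 than in p53-/- cells, and all 3 Ha-RasV12 replicates lay above all 3 p53-/- replicates. Over the whole array the same test passed an adjusted p of 0.05 for 568 of 132488 probes with limma.

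For 13 named genes of opposite direction, every Ha-RasV12 replicate moved one way and every p53-/- replicate the other. These differences were not tested, and the genes were chosen for both effects. In Ha-RasV12 minus p53-/- ratios (log2), the negative differences were -4.17 for Slc30a4, -3.78 for Nrn1 and -3.06 for Nqo1. The positive ones were 1.48 for Me1, 1.76 for Myc, 1.88 for Acta2, 2.20 for Fn1 and 3.04 for Ccn2. Larger were 3.27 for Fstl3, 3.33 for Hoxb8, 3.59 for Ccbe1, 4.12 for Alx1 and 5.39 for Plac8. Slc30a4, Me1 and Alx1 each had 1 replicate within 0.1 of no change.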

How the results depend on the processing

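The count of 568 probes with a called difference was 137 with no replicate block and 2317 with 12 arrays in a random block, and 418 to 567 under the other settings that kept all replicates: the letter as a block across backgrounds (418), either dye orientation alone, centring, quantile normalization and a filter on dim probes. Leaving out 1 replicate gave 57 to 2252, with 57 without p53-/- replicate B and 2252 without Ha-RasV12 replicate A. The level counts of 4926 among controls and 4734 among knockouts were 6401 and 6681 with the letter block, and 5503 and 5688 after quantile normalization, and leaving out 1 replicate gave 1666 (without p53-/- replicate C) to 10072 (without Ha-RasV12 replicate A), and 1337 (without p53-/- replicate C) to 6398 (without Ha-RasV12 replicate C). Among the 100 same-direction genes the adjusted count of 1 (limma) was 0 with no replicate block (13 unadjusted), 0 with the lists named for 1% (14 unadjusted) and 6 with the random block. It was 0 to 11 without 1 replicate, 0 without p53-/- replicate B or C (14 unadjusted each) and 2 without Ha-RasV12 replicate B. Their unadjusted count of 17 was 29 with the deposited fold and stdev and 14 to 39 without 1 replicate. Lists named for 1% left 40 genes lower in both, 13 higher in both, 19 higher in Ha-RasV12 and lower in p53-/- cells and 8 of the other kind, and limma lists left 47, 16, 16 and 7, each gene in its class. The median absolute effect in p53-/- cells was then 0.941 and 0.917. Of 730 alternative values for 50 named genes, 647 kept a call or, with no call before or after, moved by less than 1 standard error. Another 31 moved further with no change of sign or call, 11 gained the call and 3 lost it (all Tap2). Genes of opposite direction have no call to keep. The 647 include the sign changes of the mean over shared reporters given below. The other 38, for 14 genes, changed sign, and 0 of these were called or of opposite direction. With 1 replicate left out, these differences ran from -0.67 to 0.13 (Eef1g), -0.33 to 0.17 (Lsm4), -0.17 to 0.058 (Cda), -0.062 to 0.0012 (Dnase1l2), -0.14 to 0.055 (Pdk1), -0.49 to 0.24 (Tube1), -0.12 to 0.12 (Slc25a43), -0.16 to 0.13 (Zfp947), -0.29 to 0.34 (Rbm28), -0.48 to 0.59 (Chek1), -0.062 to 0.13 (Hmox1), -0.41 to 1.24 (Lum) and -0.062 to 2.16 (Meg3, lowest without Ha-RasV12 replicate A). The knockout in Cy3 alone gave 0.0898 (Taz), 0.026 (Cda), 0.094 (Tube1) and -0.042 (Zfp947), and in Cy5 alone 0.015 (Dnase1l2), 0.073 (Pdk1), -0.043 (Slc25a43), -0.21 (Rbm28) and -0.068 (Chek1). Quantile normalization gave 0.11 (Eef1g) and 0.0099 (Tube1). The Tap2 difference ran from 1.99 to 2.26 with adjusted p from 2.84e-05 to 0.0844, and was called in 11 of 14. The mean over all shared reporters of a gene changed the difference by a median of 0.107 and at most 0.476, with a changed sign for Dnase1l2 (0.07), Zfp947 (-0.03) and Chek1 (-0.02), none of them called. Class medians without Ha-RasV12 replicate A, an alternative chosen after seeing the data, kept their direction. The letters did not pair the backgrounds. The causes of these changes were not tested. Signal near background limits E4f1, Hoxb8 and Alx1 among others, and 3 replicates per group limit all values.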

Other observations

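The genes in these observations were singled out after their values were seen. Msi2, Tmem87a and Dnajc7 shared the pattern of Slc30a4, lower in Ha-RasV12 and higher in p53-/- knockout cells with p53-/- replicate A near 0. Msi2 had ratios (log2, knockout minus control) of -1.28, -0.58 and -0.45 in Ha-RasV12 replicates A, B and C, and -0.06, 1.97 and 1.87 in p53-/- replicates. Tmem87a had -0.78, -1.85 and -2.42 in Ha-RasV12 cells and 0.00, 1.37 and 1.34 in p53-/- cells. Dnajc7 had -0.97, -0.86 and -0.12 in Ha-RasV12 cells and -0.05, 1.18 and 1.17 in p53-/- cells. Replicate A thus stood apart in p53-/- cells for all of them.

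Zfp945, a zinc finger gene on chromosome 17, had ratios of -2.93, -3.65 and -3.04 in Ha-RasV12 cells and -2.78, -2.71 and -2.91 in p53-/- cells. In p53-/- knockouts it was above background in 0 of 6 samples, and by that bound it was at least 4.59-fold lower there. In Ha-RasV12 knockouts it was above background in 1 of 6 samples.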
